A study of Mus musculus with 8 samples.

Results

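A group of 33 genes for glucose uptake, glycolysis, lactate handling, the glycerol phosphate shuttle and the pentose phosphate route was examined in bulk RNA-seq of brown adipose tissue (BAT) from WT and Ucp1Δ/Δ mice. The genes were listed by name for their place in these pathways, with earlier results of these data known. All 33 of them were among the 31053 Ensembl genes of the deposited counts. Both groups were C57BL6/J mice of 10 weeks by the sample labels, whereas the study's figure legend gives a younger age, and by the study's methods mice were male unless stated otherwise. Ucp1Δ/Δ mice, labelled ATGLKO, came from a cross of Pnpla2 fl/fl mice with mice carrying a Cre recombinase under the Ucp1 promoter, so that ATGL, the first lipase of triglyceride breakdown, was to be lost only from UCP1-expressing adipocytes while other cells of the tissue kept it. The labels give the controls only as WT, and whether they carried floxed alleles or Cre was not found in the sources used here. There were 4 mice per genotype, 1 library each.

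Brown adipocytes burn fuel in mitochondria uncoupled by UCP1 and are known for avid glucose uptake. Glucose enters through transporters of the Slc2a family, is trapped by hexokinases as glucose 6-phosphate, and either runs down glycolysis to pyruvate and lactate or enters the pentose phosphate route. The oxidative branch of that route makes NADPH, the reducing power for fatty acid synthesis, and its non-oxidative branch passes sugar phosphates back to glycolysis. Dihydroxyacetone phosphate from glycolysis also gives glycerol 3-phosphate, the backbone of triglycerides.

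The libraries held between 2017697 and 3115956 counts, and mitochondrially encoded genes took between 38.4% and 45.6% of them. At these depths, 3 counts corresponded to between 0.926 and 1.52 CPM, a count scaled to a common library size, a floor for counting error only. Pnpla2 was at 2891 ± 189.8 CPM (SD, n = 4) in WT and 470.0 ± 58.8 CPM (SD, n = 4) in Ucp1Δ/Δ mice, or 16.3% of the WT mean. The labels name the stromal vascular fraction as cell type, but brown adipocyte genes such as Ucp1 and Cidea were abundant in each library. Summed over 10 brown adipocyte markers, the level was between 13162 and 21857 CPM in WT and between 9882 and 14811 CPM in Ucp1Δ/Δ mice, which overlapped. Of these 10 markers, 1 was higher and 4 were lower at an adjusted p under 0.05. The sum over 16 macrophage markers rose from between 129.6 and 210.3 CPM to between 1466 and 2754 CPM, with 15 of the 15 tested higher. The sum over 6 fibroblast markers was between 335 and 525 CPM in WT and between 1037 and 2117 CPM in Ucp1Δ/Δ mice, and 5 of the 5 tested were higher. The sum over 6 endothelial markers was between 152 and 187 CPM in WT and between 201 and 219 CPM in Ucp1Δ/Δ mice, which did not overlap, and 1 of the 6 was higher. Of 5 red blood cell markers 0 were called, and none of 6 neutrophil markers had enough counts to be tested, their sum reaching at most 10.2 CPM in any mouse. In bulk tissue, fewer cells of a type and less RNA per cell cannot be told apart, and the part of these shifts in the results below was not tested.

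Differences between Ucp1Δ/Δ and WT mice were tested by quasi-likelihood F-tests in edgeR on the 8930 genes with enough counts, with p adjusted over all of them after Benjamini and Hochberg, and a gene was called at an adjusted p under 0.05. Of the 33 members, 28 were tested and 11 were called, 2 higher and 9 lower in Ucp1Δ/Δ mice. The 2 higher genes were Hk1 and G6pdx. The 9 lower genes were Slc2a4, Hk2, Pfkfb3, Gapdh, Gpd1, Gpd2, Tkt, Taldo1 and Rpe. Over all genes tested, 21.0% were called, 13.3% higher and 7.64% lower, against 39.3%, 7.14% and 32.1% of the tested members. Without Ucp1Δ/Δ replicate 4 only 1 member was called higher, while over all genes tested 1016 were, against 1190 with all mice. With the mouse of each genotype highest in muscle markers left out, only 4 members were called lower. Over all genes tested, the lower calls fell from 682 to 278 in that setting. The levels of the genotypes did not overlap in 3 of the 28 tested members that lay above and 8 that lay below WT, against 14.4% and 9.38% of all genes tested. Of the 5 untested members, 3 (Slc2a3, Hk3 and Slc16a3) lay above WT without overlap, at low counts, with Hk3 at only 2 counts in Ucp1Δ/Δ replicate 3. The share without overlap among genes that failed the filter was not computed, so this count has no background to be read against. The median log2 fold change (log2FC, Ucp1Δ/Δ over WT) was -0.17 over the tested members and -0.01 over all genes tested. Scaling by total counts alone moved the median over all genes to 0.13 and that of the members to -0.03, so that both lay higher by a similar amount. With that scaling the higher genes were 78.2% of all those called, against 63.6%.

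**Figure D1:**
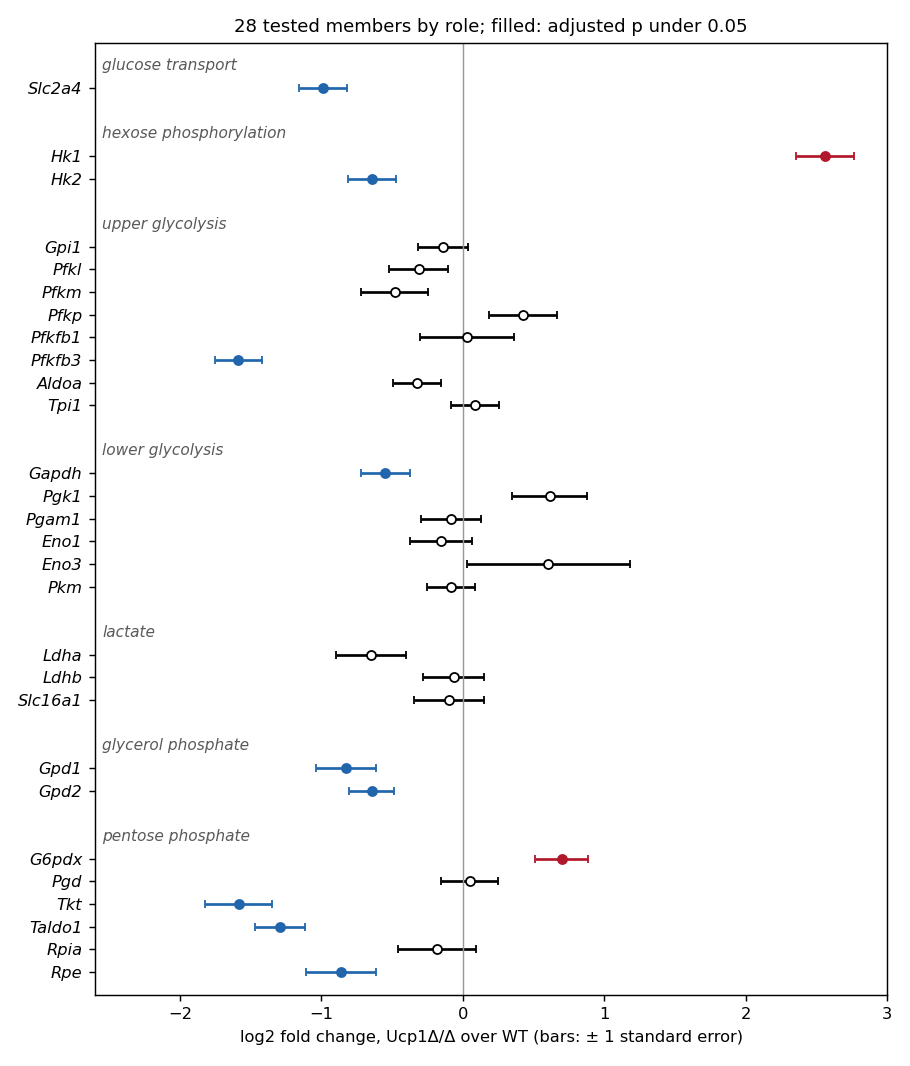
Log2 fold change of the 28 tested members (horizontal axis, Ucp1Δ/Δ over WT, bars of 1 standard error), ordered by role. Filled points passed an adjusted p of 0.05, with Hk1 at 2.56 farthest to the right, and Pfkfb3 and Tkt, both at -1.59, farthest to the left.

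Among the glucose transporters of the group, only Slc2a4 had enough counts to be tested. Slc2a4 encodes the insulin-responsive transporter GLUT4 (chromosome 11 of mm10, 69942539 to 69948188, minus strand). Its level was 154, 182, 143 and 127 CPM in the WT mice and 75.8, 77.5, 66.3 and 86.0 CPM in the Ucp1Δ/Δ mice, given here and below in the order of their replicate numbers. Each Ucp1Δ/Δ mouse lay below each WT mouse. The log2FC was -0.99 (standard error, SE, 0.17, adjusted p = 0.000641), a mean at 50.4% of WT. The other glucose transporters of the group had too few counts to be tested. Slc2a1, which encodes the ubiquitous transporter GLUT1, had raw counts of 7, 0, 8 and 4 in WT and 8, 15, 7 and 9 in Ucp1Δ/Δ mice, which overlapped. Slc2a3, which encodes the high-affinity transporter GLUT3, had raw counts of 2, 1, 2 and 1 in WT and 11, 9, 5 and 8 in Ucp1Δ/Δ mice. The Slc2a3 counts were higher in each Ucp1Δ/Δ mouse but too low for the filter.

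Hexokinases, which phosphorylate glucose and hold it in the cell, moved in opposite directions. Hk1 (chromosome 10, 62268855 to 62379908, minus strand), the broadly expressed form, was at 10.1, 13.8, 14.2 and 8.55 CPM in WT. In Ucp1Δ/Δ mice it was at 73.0, 60.5, 78.7 and 68.1 CPM. The groups lay far apart, with the lowest Ucp1Δ/Δ mouse well above the highest WT mouse. The log2FC was 2.56 (SE 0.20, adjusted p = 6.93e-07), or 6.01 times the WT mean, the largest change in either direction among the tested members. Hk2 (chromosome 6, 82725025 to 82774454, minus strand), the form typical of insulin-sensitive tissues, was at 228, 187, 209.8 and 169 CPM in WT and 135, 107, 149.6 and 117 CPM in Ucp1Δ/Δ mice. Each Hk2 level in Ucp1Δ/Δ mice was below each in WT, with a log2FC of -0.64 (SE 0.17, adjusted p = 0.0139). That call was lost without WT replicate 1 (adjusted p = 0.0514), without Ucp1Δ/Δ replicate 2 (adjusted p = 0.0554) and without both of these mice, the highest of each genotype in muscle markers (log2FC -0.48, adjusted p = 0.161). Hk3, the hexokinase of leukocytes, was not tested, with raw counts of 0, 0, 1 and 0 in WT and 4, 5, 2 and 7 in Ucp1Δ/Δ mice.

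The ratio of Hk1 to Hk2 counts within a mouse does not depend on how libraries are scaled. It was 0.0444, 0.0738, 0.0679 and 0.0506 in WT mice, against 0.540, 0.567, 0.526 and 0.584 in Ucp1Δ/Δ mice. The ratios did not overlap, and their mean was 9.37 times higher in Ucp1Δ/Δ mice. Every Hk1 level in Ucp1Δ/Δ mice lay above WT and every Hk2 level below it, so this lack of overlap was fixed in advance. It adds no support beyond the results of Hk1 and Hk2 themselves. The macrophage sum moved with genotype as Hk1 did, at 175, 210.3, 129.6 and 149 CPM in WT and 1986, 2754, 1466 and 1773 CPM in Ucp1Δ/Δ mice. Among Ucp1Δ/Δ mice, replicate 2 had the highest macrophage sum and the lowest Hk1 level, and replicate 3 the lowest sum and the highest Hk1 level. The fibroblast and endothelial sums also lay higher in Ucp1Δ/Δ mice without overlap. Among Ucp1Δ/Δ mice the fibroblast sum was likewise highest in replicate 2 (2117 CPM) and lowest in replicate 3 (1037 CPM). The endothelial sum ran the other way, highest in replicate 3 (219 CPM) and lowest in replicate 2 (201 CPM). These orders rest on 4 mice. The part of any of these sums in the Hk1 result was not tested. An annotated antisense gene, Hk1os, shares exon sequence with Hk1 on the opposite strand and had at most 1 count in any mouse. No stretch of 75 bases, the read length, in the annotated Hk1 transcripts occurred in a transcript of another gene.

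**Figure D2:**
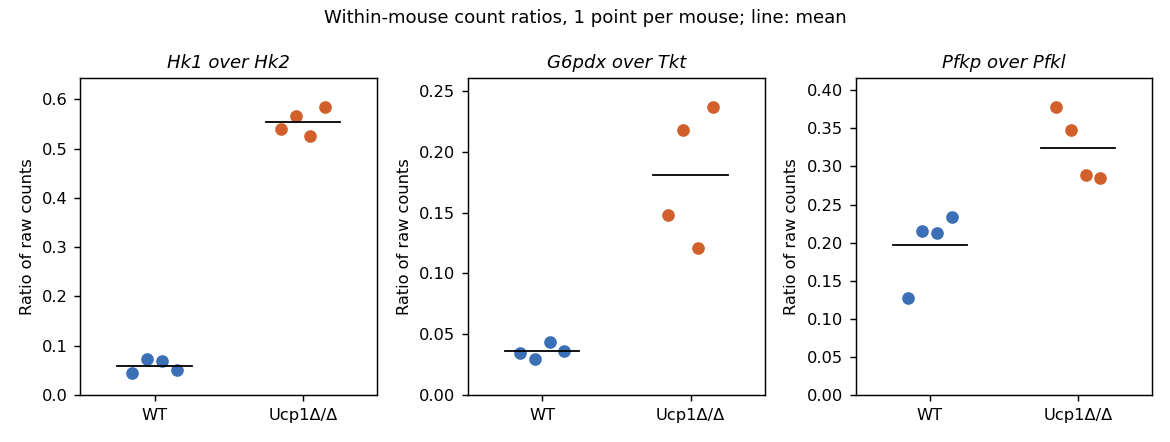
Ratio of raw counts (vertical axis) of Hk1 over Hk2, G6pdx over Tkt and Pfkp over Pfkl in each mouse, with a line at the mean of each genotype. The Hk1 over Hk2 ratio averaged 0.0592 in WT and 0.554 in Ucp1Δ/Δ mice.

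Start-site sequences are shown for members that rose (Hk1, G6pdx) and for those with the lowest log2FC (Pfkfb3, Tkt), to set their promoters side by side. They were taken from RefSeq on GRCm38.p6, run 5′ to 3′ on the strand of the gene, and cover 250 bases before to 50 bases after an annotated start. Hk1 is at chr10:62340372-62340671, G6pdx at chrX:74428831-74429130, Pfkfb3 at chr2:11502041-11502340 and Tkt at chr14:30548881-30549180. Each window lies within the bounds of its annotated gene, on the plus strand for Tkt and on the minus strand for the others. Capitals mark matches on either strand to ACGTG, the core of sites bound by hypoxia-inducible factors, to CACGTG, the E-box bound by factors such as ChREBP with Mlx, and to TGACNNNGC, the core of the antioxidant response element. CACGTG contains ACGTG on both strands, so that an E-box always counts for both.
Hk1: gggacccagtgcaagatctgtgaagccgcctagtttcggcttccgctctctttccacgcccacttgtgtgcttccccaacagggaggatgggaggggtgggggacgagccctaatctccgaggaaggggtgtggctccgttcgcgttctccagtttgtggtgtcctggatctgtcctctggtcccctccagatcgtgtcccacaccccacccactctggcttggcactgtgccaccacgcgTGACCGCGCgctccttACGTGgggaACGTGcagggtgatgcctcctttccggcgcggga
G6pdx: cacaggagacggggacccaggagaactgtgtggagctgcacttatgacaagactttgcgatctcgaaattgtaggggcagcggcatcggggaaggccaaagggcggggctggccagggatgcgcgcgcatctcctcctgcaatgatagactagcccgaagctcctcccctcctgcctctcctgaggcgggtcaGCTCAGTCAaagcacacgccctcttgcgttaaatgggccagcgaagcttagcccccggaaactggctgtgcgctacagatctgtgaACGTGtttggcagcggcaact
Pfkfb3: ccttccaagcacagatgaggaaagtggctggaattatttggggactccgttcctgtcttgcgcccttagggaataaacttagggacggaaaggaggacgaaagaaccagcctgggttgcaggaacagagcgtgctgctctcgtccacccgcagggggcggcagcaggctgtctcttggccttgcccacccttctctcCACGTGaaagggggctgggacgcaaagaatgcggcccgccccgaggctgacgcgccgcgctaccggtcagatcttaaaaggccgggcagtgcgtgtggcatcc
Tkt: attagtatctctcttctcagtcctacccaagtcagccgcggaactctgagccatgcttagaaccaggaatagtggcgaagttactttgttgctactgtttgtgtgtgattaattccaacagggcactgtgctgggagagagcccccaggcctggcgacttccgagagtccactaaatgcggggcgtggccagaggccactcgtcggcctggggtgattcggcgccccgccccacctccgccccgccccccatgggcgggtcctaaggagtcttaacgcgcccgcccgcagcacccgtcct
In these windows, Hk1 held 2 matches to ACGTG and 1 to TGACNNNGC, G6pdx 1 of each, Pfkfb3 1 E-box with the 2 overlapping ACGTG matches it contains, and Tkt 0 of any. A second annotated Hk1 start and the Taldo1 start held 0 of these motifs, and a second Pfkfb3 start held 1 ACGTG. The windows printed for Hk1 and Pfkfb3 are thus those with more matches, and which start BAT uses was not tested. Of the 30 members with a listed promoter, 17 held ACGTG, or 56.7%, against 21.8% of 27025 genes with promoters of the same length. The E-box was held by 4 of the 30 (Pfkm, Pfkfb3, Ldha and Slc16a1), against 8.09% of all genes, and TGACNNNGC by 5 of the 30 (Hk1, Aldoa, Slc16a1, G6pdx and Pgd), against 14.0%. These are matches of letters and say nothing of binding.

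In upper glycolysis, which splits glucose 6-phosphate into triose phosphates, 1 of 8 tested members was called. Pfkfb3 (chromosome 2, 11471433 to 11554077, minus strand) makes fructose 2,6-bisphosphate, the activator of phosphofructokinase. Its level was 356, 437, 353 and 301 CPM in WT and 128, 114, 122 and 118 CPM in Ucp1Δ/Δ mice. The Ucp1Δ/Δ mice were close to each other and all lay below the WT mice. The log2FC was -1.59 (SE 0.17, adjusted p = 7.49e-06), a mean at 33.3% of WT. Its relative Pfkfb1, which makes and degrades the same activator, was at 11.7 ± 6.60 CPM (SD, n = 4) in WT and 11.9 ± 3.58 CPM (SD, n = 4) in Ucp1Δ/Δ mice. That spread came largely from WT replicate 4, at 21.6 CPM against at most 9.28 CPM in the other WT mice.

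The phosphofructokinases, which catalyse the committed step, did not pass the test. The liver-type Pfkl had a log2FC of -0.31 (SE 0.21, adjusted p = 0.331), the platelet-type Pfkp one of 0.43 (SE 0.24, adjusted p = 0.236) and the muscle-type Pfkm one of -0.48 (SE 0.24, adjusted p = 0.176). Pfkp levels ran from 24.3 to 49.3 CPM in WT and from 38.3 to 65.6 CPM in Ucp1Δ/Δ mice, which overlapped. The within-mouse ratio of Pfkp to Pfkl counts ran from 0.128 to 0.233 in WT and from 0.285 to 0.378 in Ucp1Δ/Δ mice, without overlap, a description chosen after the values were seen. Of the remaining enzymes, Gpi1, the phosphoglucose isomerase, had a log2FC of -0.14 (adjusted p = 0.635), Aldoa, the aldolase of muscle and most other tissues, one of -0.32 (adjusted p = 0.207), and Tpi1, the triose phosphate isomerase, one of 0.09 (adjusted p = 0.772). Aldoc, the brain aldolase, had 1 or 2 raw counts in each mouse and was not tested.

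Lower glycolysis, from triose phosphate to pyruvate, gave 1 call among 6 tested members. Gapdh, often used as a reference gene, was at 126, 146, 128 and 118 CPM in WT and 113, 84.3, 80.8 and 75.8 CPM in Ucp1Δ/Δ mice, with the highest Ucp1Δ/Δ mouse just under the lowest WT mouse. The log2FC was -0.55 (SE 0.17, adjusted p = 0.0348), and the call was lost in 9 of 19 other settings, with adjusted p up to 0.165, among them when any 1 mouse was left out other than WT replicate 4 or Ucp1Δ/Δ replicate 1. Of the 75-base stretches of the Gapdh transcripts, 22.6% also occurred in transcripts of 118 other annotated genes, so that its counts are uncertain where the counting split or dropped such reads. The same holds for Pgk1, with 52.8% of its stretches shared, Pgam1 with 34.9%, Eno1 with 23.0% and Pkm with 17.8%.

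Pgk1, the phosphoglycerate kinase, ran from 4.97 to 6.58 CPM in WT and from 8.07 to 9.80 CPM in Ucp1Δ/Δ mice, without overlap, but its log2FC of 0.61 (SE 0.26) did not pass (adjusted p = 0.117), although it did under a stricter filter of 10 counts per mouse (adjusted p = 0.0440). Pgam1, the phosphoglycerate mutase, had a log2FC of -0.08 (adjusted p = 0.824), Eno1, the ubiquitous enolase, one of -0.15 (adjusted p = 0.674), and Pkm, the pyruvate kinase, one of -0.08 (adjusted p = 0.788). For Pkm the level was 937 ± 158 CPM (SD, n = 4) in WT and 886 ± 105 CPM (SD, n = 4) in Ucp1Δ/Δ mice. Pgam1 and Pkm turned just above 0 under scaling by total counts alone.

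Among the lactate genes, Ldha and Ldhb encode the subunits of lactate dehydrogenase, and Slc16a1 and Slc16a3 the monocarboxylate transporters MCT1 and MCT4. Ldha was at 701, 1102, 671 and 431 CPM in WT and 604, 430.4, 465 and 353 CPM in Ucp1Δ/Δ mice. The groups overlapped, and the log2FC of -0.65 (SE 0.25) did not pass (adjusted p = 0.0756). Ldha was called without WT replicate 4 (log2FC -0.83, adjusted p = 0.0109), without Ucp1Δ/Δ replicate 1 (adjusted p = 0.0489), and by DESeq2's Wald test (adjusted p = 0.0443). Ldhb had a log2FC of -0.06 (adjusted p = 0.873) and Slc16a1 one of -0.09 (adjusted p = 0.833), and both turned just above 0 when libraries were scaled by total counts alone. Slc16a3, the exporter of glycolytic cells, had raw counts of 2, 3, 0 and 1 in WT and 6, 17, 5 and 6 in Ucp1Δ/Δ mice and was not tested.

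Both enzymes of the glycerol phosphate shuttle were lower. Gpd1 (chromosome 15, 99717515 to 99725005, plus strand), the cytosolic enzyme that makes glycerol 3-phosphate, was at 1992, 2499, 2074 and 1331 CPM in WT and 1154, 807, 1383 and 1112 CPM in Ucp1Δ/Δ mice. Only WT replicate 4 fell within the Ucp1Δ/Δ range. The log2FC was -0.83 (SE 0.21, adjusted p = 0.0111). Gpd2 (chromosome 2, 57237635 to 57370719, plus strand), the mitochondrial enzyme that oxidises it again and feeds electrons to the respiratory chain, was at 1658, 1320.3, 1573 and 1385 CPM in WT and 946, 823, 967 and 1063 CPM in Ucp1Δ/Δ mice. The groups did not overlap, with a log2FC of -0.64 (SE 0.16, adjusted p = 0.00911). With the mouse of each genotype highest in muscle markers left out, an alternative added after the data were seen, the log2FC of Gpd1 was -0.68 (adjusted p = 0.102) and that of Gpd2 -0.51 (adjusted p = 0.127).

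In the pentose phosphate route the first enzyme rose while most of the non-oxidative branch fell. G6pdx (chromosome X, 74409483 to 74429194, minus strand), the glucose 6-phosphate dehydrogenase that commits glucose to the route and makes NADPH, was at 76.4, 73.4, 68.9 and 52.8 CPM in WT. In Ucp1Δ/Δ mice it was at 129.5, 95.1, 88.7 and 127 CPM. Every Ucp1Δ/Δ mouse lay above the WT mice, with replicates 1 and 4 well above replicates 2 and 3. The log2FC was 0.70 (SE 0.19, adjusted p = 0.0143), and the call was lost without Ucp1Δ/Δ replicate 4 (adjusted p = 0.0509). Pgd, the second NADPH-making enzyme, had a log2FC of 0.05 (SE 0.20, adjusted p = 0.897), with WT replicate 4 at 88.5 CPM and the other WT mice between 132 and 141 CPM.

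Tkt (chromosome 14, 30548359 to 30574720, plus strand), the transketolase that links pentose phosphates to glycolysis, was at 2202, 2504, 1578 and 1457 CPM in WT and 874, 436, 732 and 537 CPM in Ucp1Δ/Δ mice. Each Ucp1Δ/Δ mouse lay below each WT mouse. The log2FC was -1.59 (SE 0.24, adjusted p = 0.000194). Taldo1 (chromosome 7, 141392199 to 141402968, plus strand), the transaldolase of the same branch, was at 751, 839, 658 and 591 CPM in WT and 339, 265, 306 and 248 CPM in Ucp1Δ/Δ mice, again without overlap. Its log2FC was -1.29 (SE 0.17, adjusted p = 7.19e-05), a mean at 40.8% of WT against 33.3% for Tkt. Rpe, the ribulose 5-phosphate epimerase, was at 20.2, 35.6, 23.5 and 20.6 CPM in WT and 11.6, 13.0, 11.2 and 19.6 CPM in Ucp1Δ/Δ mice. Its log2FC was -0.86 (SE 0.25, adjusted p = 0.0223), with Ucp1Δ/Δ replicate 4 close under the lowest WT mouse, and the call was lost in 6 of 19 other settings (adjusted p up to 0.0757), among them without WT replicate 2 and without Ucp1Δ/Δ replicate 1, 2 or 3. Rpia, the ribose 5-phosphate isomerase, had a log2FC of -0.18 (adjusted p = 0.693).

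Within a mouse, the ratio of G6pdx to Tkt counts was 0.0347, 0.0293, 0.0437 and 0.0362 in WT mice, against 0.148, 0.218, 0.121 and 0.237 in Ucp1Δ/Δ mice. The mean ratio was 5.03 times higher in Ucp1Δ/Δ mice. That of G6pdx to Taldo1 was 4.03 times higher, also without overlap. Both gaps follow from G6pdx lying above WT in every Ucp1Δ/Δ mouse and Tkt and Taldo1 below it, and add no support beyond these genes. Ikbkg overlaps exons of G6pdx on the opposite strand, and it had between 25 and 33 raw counts in WT and between 21 and 49 in Ucp1Δ/Δ mice.

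**Figure D3:**
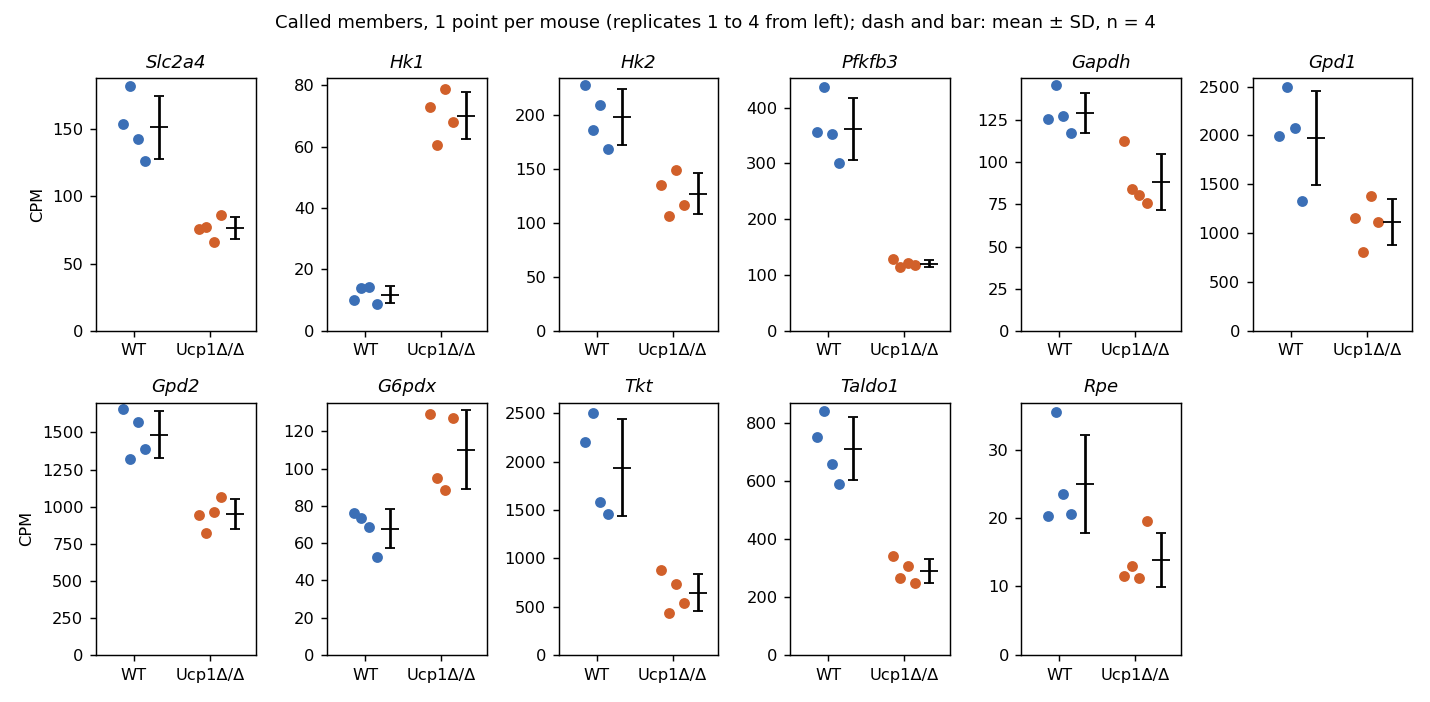
Level in CPM (vertical axis, from 0) of the 11 called members in each mouse, 1 panel per gene, with the mean and SD of 4 mice beside the points. Hk1 and G6pdx lie higher in Ucp1Δ/Δ mice and the other 9 genes lower, and only Gpd1 has points that overlap between genotypes.

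Skeletal muscle lies next to the interscapular fat, and several members have muscle-type isoforms. The summed level of 20 contractile muscle genes such as Acta1 and Myh4 was 3240.0, 288, 142 and 1413 CPM in WT and 661, 3964, 184 and 1920.0 CPM in Ucp1Δ/Δ mice. It varied by mouse within both genotypes, and 0 of the 17 muscle markers tested were called between them. Eno3, the muscle enolase, was at 32.4, 7.56, 4.31 and 20.6 CPM in WT and 14.7, 50.3, 5.39 and 23.0 CPM in Ucp1Δ/Δ mice. The order of the 8 mice by Eno3 was the same as their order by the muscle sum. In a fit of genotype and the log2 muscle sum together, Eno3 rose by 0.66 on the log2 scale per doubling of the sum (SE 0.07, adjusted p = 9.23e-07). It was the only one of the 28 tested members with a slope past the threshold, against 0.605% of all genes with an upward slope, and 0 members had a downward slope past it, against 0.0784%. Between genotypes its log2FC was 0.60 (SE 0.57, adjusted p = 0.511), and -0.12 without Ucp1Δ/Δ replicate 2.

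Pgam2, the muscle phosphoglycerate mutase and no member of the group, behaved like Eno3, at 13.2, 0.889, 0 and 6.03 CPM in WT and 8.78, 28.1, 1.24 and 11.5 CPM in Ucp1Δ/Δ mice, with a slope of 0.95 per doubling (adjusted p = 1.75e-05). Its log2FC between genotypes was 1.46 (SE 0.80, adjusted p = 0.222). Pgam2 was called higher with the muscle sum as a covariate (log2FC 1.07, adjusted p = 0.0466) and when genes with at least 1 count in any mouse were kept (log2FC 1.43, adjusted p = 0.0015). Pfkm, also named for muscle, was at 23.3, 30.7, 18.2 and 24.1 CPM in WT and 12.3, 23.2, 14.5 and 18.3 CPM in Ucp1Δ/Δ mice, with a slope of 0.09 (adjusted p = 0.654). Aldoa, which muscle shares with most tissues, had a slope of -0.02 (adjusted p = 0.932). The slopes of the 11 called members had adjusted p of 0.458 or more. A slope under the threshold does not show that a gene took no counts from muscle. With the muscle sum as a covariate, the same 11 members were called. Over all genes tested, 1946 were called in that fit, against 1872 in the main fit.

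**Figure D4:**
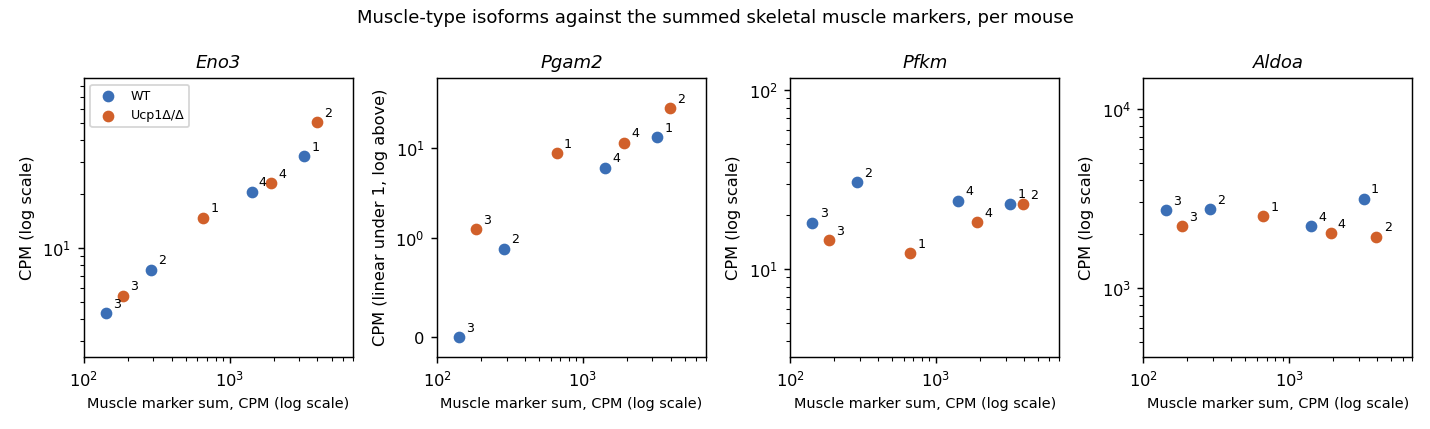
Level in CPM (vertical axes, log scale, linear under 1 CPM for Pgam2) of Eno3, Pgam2, Pfkm and Aldoa against the summed CPM of 20 skeletal muscle markers (horizontal axes, log scale), 1 point per mouse, numbered by replicate. Eno3 climbs with the sum in both genotypes, from 4.31 CPM in WT replicate 3 to 50.3 CPM in Ucp1Δ/Δ replicate 2. For Pfkm and Aldoa the slope per doubling of the sum, 0.09 and -0.02, did not pass the threshold.

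Beyond the members, 61 further genes of the pathway were listed, of which 32 were tested, 2 were higher and 8 lower, against 13.3% higher and 7.64% lower over all genes tested. Galk1, the galactokinase that brings galactose towards glycolysis, rose from 13.7, 6.67, 8.62 and 2.51 CPM in WT to 30.2, 23.5, 36.1 and 25.6 CPM in Ucp1Δ/Δ mice, a log2FC of 1.86 (SE 0.32, adjusted p = 0.000626). Pgm2l1, which makes glucose 1,6-bisphosphate, the cofactor of phosphoglucomutase, had a mean of 12.4 CPM in Ucp1Δ/Δ mice (SD 3.65, 4 mice) against 6.22 CPM in WT (SD 1.59, 4 mice), with an edgeR adjusted p of 0.0234. Ucp1Δ/Δ replicate 4 stood apart from the other Ucp1Δ/Δ mice for Pgm2l1, and the call was lost without it (adjusted p = 0.0934), without WT replicate 2 (adjusted p = 0.0524) and without WT replicate 3 (adjusted p = 0.0737). The phosphoglucomutase Pgm1 itself, which joins glucose 6-phosphate to glycogen, was at 211, 249, 233 and 204 CPM in WT and 144, 115, 154 and 116 CPM in Ucp1Δ/Δ mice. Its log2FC was -0.76 (SE 0.17, adjusted p = 0.00376).

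Of the other lower genes, Shpk, the kinase that turns sedoheptulose into an intermediate of the non-oxidative pentose phosphate branch, had a log2FC of -1.39 (SE 0.35, adjusted p = 0.0105). Raw Shpk counts were 11, 15, 14 and 14 in WT and 4, 7, 6 and 7 in Ucp1Δ/Δ mice. The monocarboxylate transporter Slc16a7 fell from 6.58, 8.89, 6.63 and 4.52 CPM to 1.05, 3.09, 2.07 and 0 CPM (SE of the log2FC 0.50, adjusted p = 0.00976), and the D-lactate dehydrogenase Ldhd one of -0.54 (SE 0.17, adjusted p = 0.0372), a call that was lost in 9 of 19 other settings, with adjusted p up to 0.254. The Ldhd call was lost when any 1 mouse was left out other than WT replicate 2 or Ucp1Δ/Δ replicate 4. Among regulators, Mlx, the obligate partner of ChREBP, ran from 7.56 to 17.9 CPM in WT and from 4.21 to 9.12 CPM in Ucp1Δ/Δ mice, with a log2FC of -1.34 (SE 0.33, adjusted p = 0.00921). Without the mouse of each genotype highest in muscle markers, the adjusted p was 0.0894 for Mlx and 0.0686 for Shpk. Mlxipl, which encodes ChREBP, the glucose-sensing activator of lipogenic genes, had a log2FC of -0.09 (SE 0.17, adjusted p = 0.775) when all its transcripts were counted together. Txnip, the arrestin-like protein that lowers glucose uptake, had a log2FC of 0.14 (SE 0.17, adjusted p = 0.603). The prolyl hydroxylase Egln3, which is induced by hypoxia-inducible factors and marks them for degradation, had a log2FC of -2.17 (SE 0.43, adjusted p = 0.00174), with each Ucp1Δ/Δ mouse below each WT mouse. Its raw counts were low, at 14, 39, 33 and 13 in WT and 2, 10, 7 and 6 in Ucp1Δ/Δ mice.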

How the data were processed

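BAT RNA of 4 WT and 4 Ucp1Δ/Δ mice was profiled by a digital mRNA-seq service, single end. The deposited counts are whole numbers per Ensembl gene, which by the study's methods the authors made with bbduk, STAR on mm10 and HTseq-counts, whereas the submitters' processing notes name Trimmomatic and HISAT2. Annotation release and strand setting were not given in the sources used here. The authors also deposited log2 values, each the log2 of a count times 1 factor per mouse, plus 1, used for 1 alternative. Where along a transcript the reads fall was not stated, so no per-length values were computed and levels were not compared between genes.

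Analyses used R 4.3.3 with edgeR 4.0.16 (filterByExpr, TMM, quasi-likelihood test on genotype), limma 3.58.1 and DESeq2 1.42.0, and were tested on simulated data. Standard errors are the log2FC over the square root of F. CPM are counts scaled to a common total with TMM-scaled library sizes, and their log2 adds a prior of 2 counts. Symbols and positions are from GENCODE M21 (mm10). Of 2 identifiers for Aldoa, 1 had 0 counts in every mouse and was left out. By the study's legend each group held 4 mice, so each library was taken as 1 mouse, and no pair was alike within counting noise. The edgeR p-values set the genotype difference against the spread between these mice, estimated with information shared across all genes tested. The members and lists were chosen with earlier results of these data known. Named were Pnpla2, all members, up to 6 further pathway genes called in each direction, and Pgam2, Mlxipl and Txnip. Alternatives varied scaling, test, filter, covariates and mice.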

Additional observations from a re-analysis of the deposited data

Results flagged for a closer look

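In 6 of 80 groups of 4 mice, for members and named pathway genes, 1 mouse stood apart from the other 3 in log2 CPM, where chance gives about 1 in 20 groups, or 4. The distance of such a mouse from the next, divided by the range over all 4 mice, was 0.855 for Pfkfb1, 0.834 for Pgam1 and 0.862 for Pgd, each in WT replicate 4. In that mouse Pfkfb1 was at 4.49 log2 CPM against 3.14 to 3.33 in the other WT mice, Pgam1 at 4.98 against 5.82 to 5.99, and Pgd at 6.48 against 7.05 to 7.15. The gap was 0.885 for Pgm2l1 in Ucp1Δ/Δ replicate 4, at 4.22 log2 CPM against 3.46 to 3.55. For Egln3 in Ucp1Δ/Δ replicate 1, with only 2 raw counts, the gap was 0.845, at 0.58 log2 CPM against 1.75 to 1.96. For Mlx in Ucp1Δ/Δ replicate 3 it was 0.868, at 3.31 log2 CPM against 2.32 to 2.45.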

How the results depend on the processing

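Of the 11 called members, 5 (Slc2a4, Hk1, Pfkfb3, Tkt and Taldo1) kept their call in all 19 alternatives. Over the named genes, 663 gene and alternative pairs stayed on the same side of the threshold in the same direction, 35 lost a call, 7 gained one and 31 changed sign. Members called higher numbered 4 with DESeq2's Wald test and 5 with at least 1 count in any mouse, where Slc2a3 (adjusted p = 0.0210), Hk3 (0.0170) and Slc16a3 (0.0229) joined. Further pathway genes called higher numbered 5, 7 and, under a filter of 10 counts per mouse, 1. Those called lower numbered 5 with total counts only and 2 under that filter. In the 3 mice per genotype with the lowest muscle marker sum, a setting added after the data were seen, 4 members and 3 further genes were lower. With 1 mouse left out, 1 to 2 members were higher and 6 to 10 lower, 1 to 3 further genes were higher and 5 to 8 lower, the median log2FC of members was -0.30 to -0.12, and that of Pnpla2 was -2.67 to -2.54. Over all genes, 954 to 1223 were then called higher and 397 to 804 lower, against 1190 and 682 in the main fit. DESeq2's Wald test called 1290 higher and 785 lower of 12312 genes. The 1-count filter called 1630 and 883 of 16617, and the filter of 10 counts per mouse 746 and 449 of 6928. Total counts only called 409 lower, and the mice with the lowest muscle marker sum 278. The cause of these shifts was not tested.

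Genes that changed sign were not called. With total counts only, log2FC was 0.0458 for Pgam1, 0.0471 for Pkm, 0.0739 for Ldhb, 0.0341 for Slc16a1 and 0.0544 for Mlxipl. With DESeq2's Wald test it was -0.0154 for Pfkfb1, with limma voom 0.0917 for Ldhb and -0.0134 for Pgd, and under the filter of 10 counts per mouse 0.0114 for Ldhb. With the muscle covariate it was -0.0853 for Pfkfb1, 0.000725 for Ldhb and 0.0029 for Slc16a1. In the 3 mice with least muscle signal it was 0.0155 for Gpi1, -0.113 for Pfkfb1, 0.0250 for Pgam1 and 0.10 for Pkm. With 1 mouse left out, it ran from -0.16 to 0.47 for Pfkfb1, -0.27 to 0.0124 for Pgam1, -0.28 to 0.0229 for Eno1, -0.12 to 1.20 for Eno3, -0.17 to 0.0308 for Pkm, -0.20 to 0.23 for Ldhb, -0.28 to 0.21 for Slc16a1, -0.11 to 0.14 for Pgd, -0.33 to 0.0463 for Rpia and -0.15 to 0.0146 for Mlxipl.

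Between mice of the same number, deviations correlated at -0.09, -0.20, 0.30 and 0.24, and 3 of 8 mice were closest to their own number. So few pairs cannot tell whether mice of the same number shared anything beyond it. With a replicate block 2 members were higher and 9 lower, 2 further genes were higher and 7 lower, the median log2FC of members was -0.15 and that of Pnpla2 -2.63. Over all genes tested, 1137 were called higher and 581 lower with that block, against 1190 and 682 in the main fit. Depth limits the 5 untested members, with at most 17 counts in any mouse.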
